A study of Mus musculus with 9 samples.

Results

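The subject is a set of 10 gene symbols for cytokines and a cytokine inhibitor: Tnf, the 5 IL-12 family subunits Il12a, Il12b, Il23a, Il27 and Ebi3, then Il15, Il18, Il18bp and Il10. They were picked by symbol from a deposited table of 18042 symbols, and all 10 were found. RNA came from macrophages sorted as CD11b+ F4/80+ cells out of subcutaneous tumours of MC38, a mouse colon carcinoma line, in female C57BL/6 mice with the genotype WT that were 6 to 8 weeks old. From day 9 the tumours were injected with IN@OMVs or OMVs, each at 625 µg of vesicle protein per kg body weight (12.5 µg per mouse), or with an equal volume of solvent (Control), and each group holds 3 biological replicates. OMVs commonly stands for outer membrane vesicles, which Gram-negative bacteria release. The labels give neither that name nor what IN is. The sources used here do not state if mice were pooled into a replicate, nor the time from injection to harvest, so p-values measure the spread between these libraries, which may be technical in part.

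The cytokines of this set pass signals between macrophages and lymphocytes. The IL-12 family is built from shared subunits: Il12b pairs with Il12a to form IL-12 and with Il23a to form IL-23, while Ebi3 pairs with Il27 to form IL-27 and with Il12a to form IL-35. IL-12, IL-15 and IL-18 stimulate NK and T cells, TNF starts inflammatory signalling in many cell types, IL-18 binding protein captures free IL-18, and IL-10 restrains cytokine production by macrophages.

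Each library held 16813230 to 17288322 expected counts (reads estimated per gene). Levels are in CPM, counts scaled to library size. As a group the sorted cells carried macrophage transcripts: 12 markers such as Csf1r and C1qa summed to 17327 to 24568 CPM in IN@OMVs libraries, 17560 to 23358 CPM in OMVs libraries and 18115 to 20438 CPM in Control libraries, and 0 of 12 passed the edgeR test in any comparison (unadjusted p under 0.05 for 4 in IN@OMVs against Control, 2 in IN@OMVs against OMVs and 0 in OMVs against Control; DESeq2 called 1, 1 and 0 in that order, and limma-voom 1, 0 and 0). Of all genes, 6.55%, 2.85% and 0.42% passed the edgeR test in these comparisons, and 19.8%, 14.4% and 8.44% had an unadjusted p under 0.05. Library 1 of IN@OMVs stood apart from its group: its 8 fibroblast markers summed to 1452 CPM, against 4598 and 4555 CPM in the other IN@OMVs libraries. Its 12 macrophage markers summed to 24568 CPM, against 17786 and 17327 CPM in libraries 2 and 3 of IN@OMVs. The libraries numbered 1 held the most T cell transcripts in every group, with 12 markers summing to 340 CPM in IN@OMVs 1, 296 CPM in OMVs 1 and 334 CPM in Control 1, and to 104 to 193 CPM in the other 6.

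The 10 transcripts ran from barely detected to well measured. To compare genes, CPM was divided by the length of the longest coding transcript in kb, and the order below is on that scale. In IN@OMVs the order was Il18 at 25.2 ± 3.84 CPM per kb (mean ± SD, n = 3 here and below), Il18bp at 22.4 ± 3.09, Tnf at 21.0 ± 5.16, Ebi3 at 19.7 ± 4.77, Il15 at 9.80 ± 1.17, Il27 at 6.52 ± 1.77, Il12b at 2.02 ± 0.426, Il10 at 1.69 ± 1.10, Il23a at 0.173 ± 0.0393 and Il12a at 0.120 ± 0.0507 CPM per kb. The first 4 lay within each other's spread there, as did Il12b and Il10, and Il23a and Il12a. In Control the order was Il18 at 26.5 ± 0.218 CPM per kb, Ebi3 at 22.1 ± 0.687, Tnf at 16.4 ± 1.57, Il18bp at 12.5 ± 1.02, Il15 at 5.81 ± 0.644, Il27 at 4.35 ± 0.973, Il10 at 2.31 ± 0.212, Il12b at 1.01 ± 0.533, Il23a at 0.516 ± 0.194 and Il12a at 0.497 ± 0.287 CPM per kb. Il18bp thus ranked below Il18 alone in IN@OMVs and below Il18, Ebi3 and Tnf in Control, and Il12b and Il10 stood in opposite order. OMVs libraries had Il18 at 26.8 ± 0.472, Ebi3 at 25.7 ± 2.19, Tnf at 18.5 ± 2.10, Il18bp at 16.2 ± 1.88 and Il15 at 7.95 ± 0.510 CPM per kb, in the same order as Control.

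**Figure D1:**
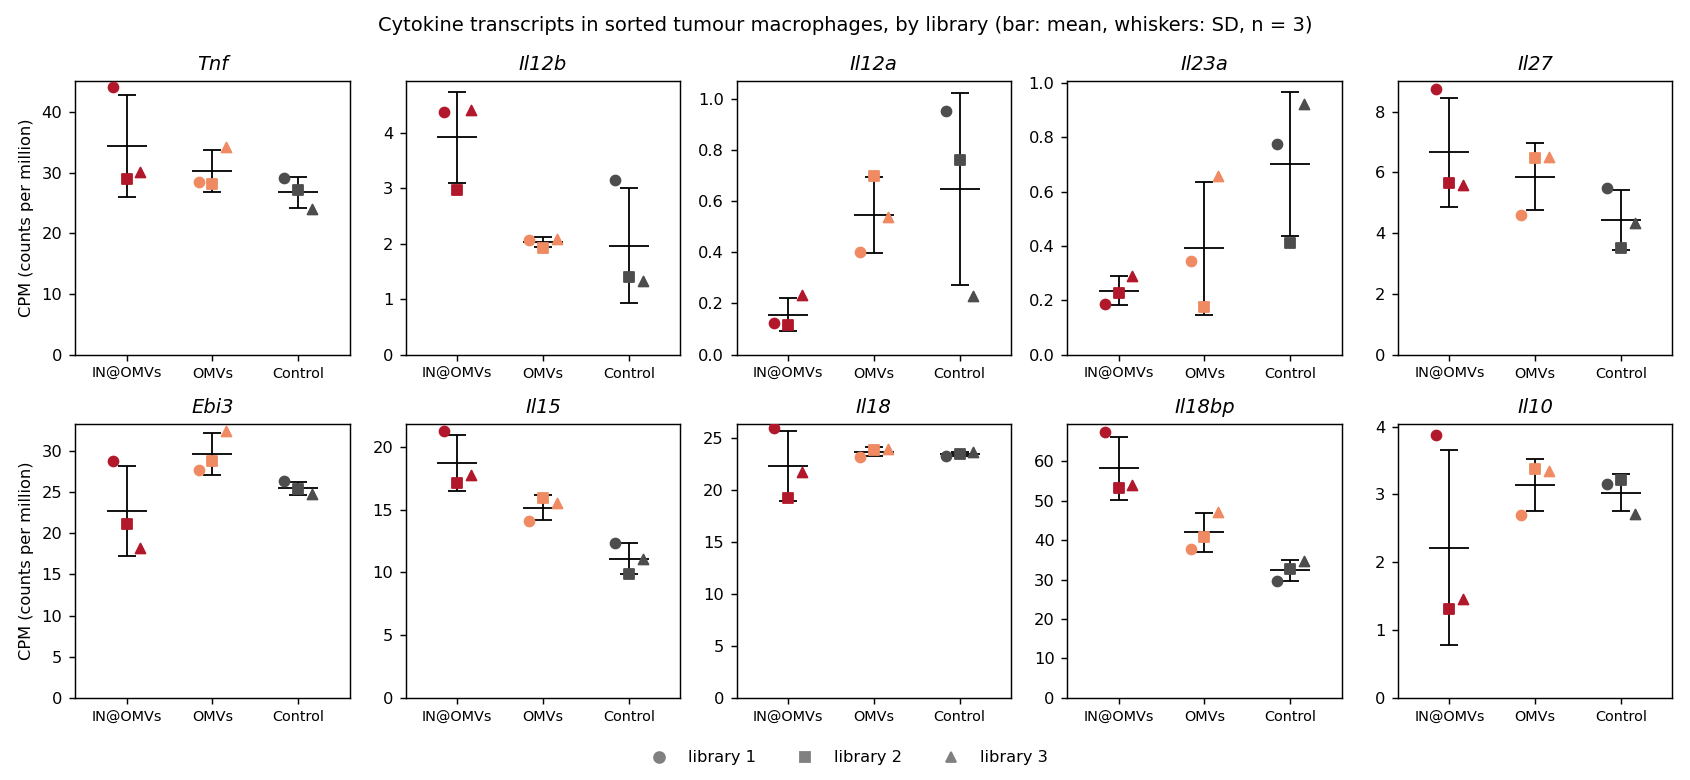
CPM of each of the 10 genes (vertical axis, linear, from 0) in every library of IN@OMVs, OMVs and Control, with the mean and SD over 3 libraries and marker shapes for the library number. Il15 and Il18bp are highest in IN@OMVs, then OMVs, then Control, without overlap between groups, while Il12a and Il23a stay below 1 CPM.

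IN@OMVs was first set against Control, which asks what the complete preparation does to tumour macrophages. Of the 10 genes, 2 rose and 0 fell at the threshold used throughout, a Benjamini-Hochberg adjusted p under 0.05 in edgeR's quasi-likelihood test over 13090 genes: Il15 and Il18bp. Of all genes tested, 6.55% were called in this comparison (3.32% as higher and 3.24% as lower in IN@OMVs). Over the 10 genes the median log2 fold change was 0.14, against a median of -0.0024 over all genes, with 5 positive and 5 negative values. At an unadjusted p under 0.05 the count was 6 of 10, beside 19.8% of all genes.

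Il18bp encodes the secreted decoy that binds IL-18. It was measured at 67.5, 53.3 and 54.0 CPM in IN@OMVs libraries, 37.7, 40.9 and 47.3 CPM in OMVs libraries and 29.6, 32.8 and 34.8 CPM in Control libraries. The 3 groups did not overlap: every IN@OMVs library lay above every OMVs library, and every OMVs library above every Control library. Il18bp rose in IN@OMVs against Control by 0.85 ± 0.12 on the log2 scale (± SE, edgeR adjusted p = 0.00334), or 1.80-fold. Its call held in 19 of 19 alternative analyses, at log2 fold changes of 0.66 to 0.91 and adjusted p-values of up to 0.0209. The value for IN@OMVs against OMVs was 0.47 ± 0.12, with an edgeR adjusted p = 0.0731 that missed the threshold and a DESeq2 adjusted p = 0.0136 that passed it. OMVs against Control gave 0.37 ± 0.12 (edgeR adjusted p = 0.341).

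Il18, the cytokine that this protein binds, is made as a precursor and cut by caspase-1. It was measured at 26.0, 19.3 and 21.7 CPM in IN@OMVs libraries, 23.2, 23.9 and 24.0 CPM in OMVs libraries and 23.2, 23.5 and 23.6 CPM in Control libraries. The IN@OMVs libraries lay on both sides of the other groups, which were within 1 CPM of each other. For IN@OMVs against Control the log2 fold change was -0.07 ± 0.10 with a 95% interval of -0.30 to 0.16 (edgeR adjusted p = 0.77), and for OMVs against Control it was 0.01 ± 0.10 with an interval of -0.21 to 0.24 (adjusted p over 0.99). The sign of the IN@OMVs value turned without library 2 of IN@OMVs, to 0.02.

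The promoters of this pair are shown because their transcripts differed in response. They are the 250 bases before the annotated start in RefSeq (GRCm38.p6), printed 5′ to 3′ on the gene's strand, with motif matches in capitals. Il18bp lies on the minus strand at chr7:102018233-102018482 and Il18 on the plus strand at chr9:50554450-50554699.
Il18bp: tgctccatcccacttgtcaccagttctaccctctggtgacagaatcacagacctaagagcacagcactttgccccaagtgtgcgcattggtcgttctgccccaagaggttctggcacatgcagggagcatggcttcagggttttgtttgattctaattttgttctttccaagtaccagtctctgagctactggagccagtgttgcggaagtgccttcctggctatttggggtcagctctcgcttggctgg
Il18: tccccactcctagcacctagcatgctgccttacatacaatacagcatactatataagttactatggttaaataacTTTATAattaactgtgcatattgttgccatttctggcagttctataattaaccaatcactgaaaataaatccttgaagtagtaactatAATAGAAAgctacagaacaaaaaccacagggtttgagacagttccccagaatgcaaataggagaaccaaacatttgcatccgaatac
A set of 6 motifs was searched on both strands: the IRF core AANNGAAA, the GAS element TTCNNNGAA, the ISRE GAAANNGAAA (which contains the IRF core), the kappaB site, the TATA box TATAAA and the PU.1 core GAGGAA. They occur in 21.3%, 7.02%, 2.98%, 3.9%, 12.4% and 23.3% of 32851 windows of this length, in that order. The Il18bp window held none of these letters. The Il18 window held 1 IRF core, 87 to 80 bases before the start, and 1 TATA match on the opposite strand, 175 to 170 bases before it. A match describes the letters only, and neither a match nor its absence was linked to binding. Of the 10 genes, 6 had an entry, and Il10, Il15, Il23a and Il27 are named only.

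The ratio of Il18bp to Il18 within each library, on the per kb scale, was 0.885, 0.942 and 0.848 in IN@OMVs libraries, 0.554, 0.583 and 0.672 in OMVs libraries and 0.434, 0.476 and 0.502 in Control libraries. All 3 groups were apart from each other. The means were 0.892 ± 0.0472 for IN@OMVs, 0.603 ± 0.0620 for OMVs and 0.471 ± 0.0346 for Control (SD, n = 3 each). This ratio was chosen after its values were seen, and each of its 3 comparisons had a two-sided exact permutation p = 0.1, the smallest that 3 against 3 libraries allow, or 0.129 adjusted over the 9 ratio tests made.

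Il15 encodes a cytokine that macrophages present to NK cells and CD8 T cells on its receptor chain Il15ra. Its level was 21.2, 17.1 and 17.8 CPM in IN@OMVs libraries, 14.1, 15.9 and 15.5 CPM in OMVs libraries and 12.3, 9.88 and 11.1 CPM in Control libraries. As with Il18bp, the 3 groups did not overlap. Il15 rose in IN@OMVs against Control by 0.75 ± 0.12 (edgeR adjusted p = 0.00632), or 1.69-fold, and this call held in 19 of 19 alternatives (0.65 to 0.84, adjusted p up to 0.0387). The other comparisons missed the threshold, with 0.30 ± 0.12 for IN@OMVs against OMVs (edgeR adjusted p = 0.28) and 0.45 ± 0.12 for OMVs against Control (edgeR adjusted p = 0.236). Without the 3 libraries numbered 1, an analysis added after seeing the data, both Il15 (0.58, edgeR adjusted p = 0.0245) and Il18bp (0.38, adjusted p = 0.0435) passed in OMVs against Control.

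**Figure D2:**
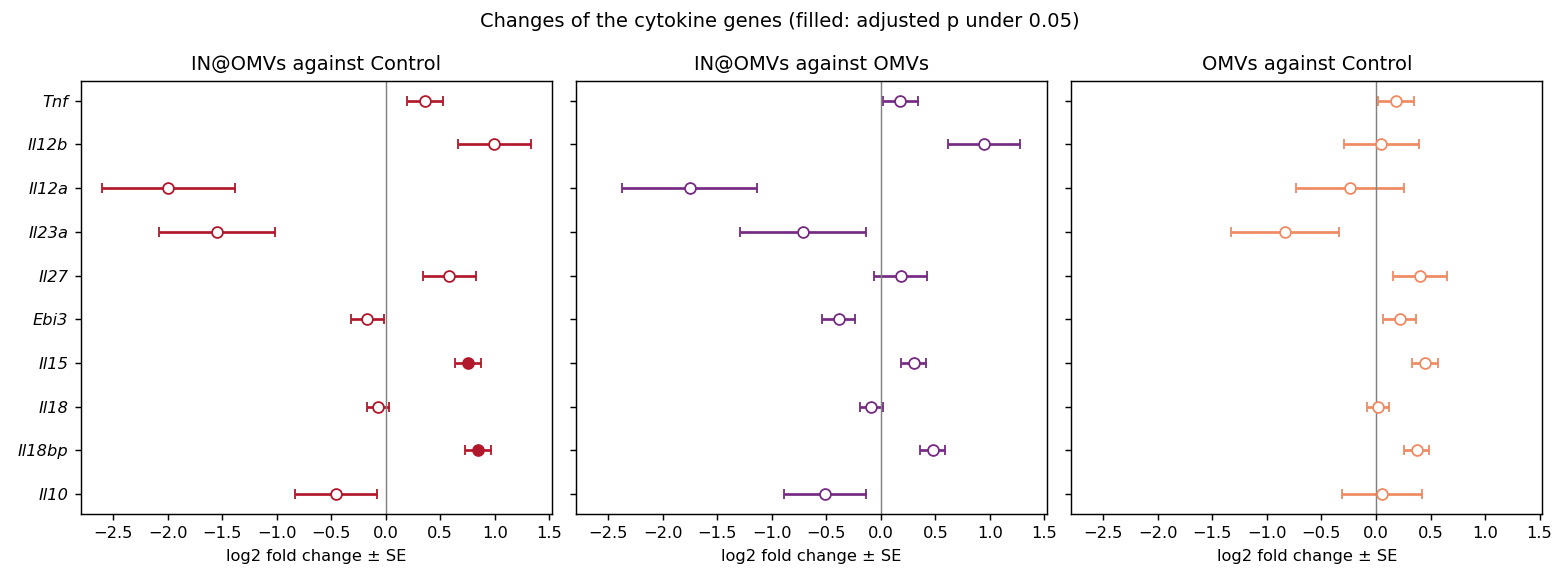
Log2 fold change ± SE of the 10 genes (horizontal axis) in IN@OMVs against Control, IN@OMVs against OMVs and OMVs against Control, with filled points for an edgeR adjusted p under 0.05. Filled points appear only for Il15 (0.75) and Il18bp (0.85) in IN@OMVs against Control.

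Tnf encodes the inflammatory cytokine TNF, which is cut from the cell surface by Adam17. Its level was 44.2, 28.9 and 30.2 CPM in IN@OMVs libraries, 28.5, 28.2 and 34.4 CPM in OMVs libraries and 29.2, 27.1 and 24.1 CPM in Control libraries. Library 1 of IN@OMVs was the highest of the 9, and the other IN@OMVs libraries lay within the range of the OMVs libraries. The log2 fold change was 0.36 ± 0.16 for IN@OMVs against Control (95% interval -0.01 to 0.73, edgeR adjusted p = 0.271), 0.18 ± 0.16 for IN@OMVs against OMVs (adjusted p = 0.705) and 0.18 ± 0.16 for OMVs against Control (adjusted p = 0.901). Without library 1 of IN@OMVs the value against Control was 0.14 and that against OMVs was -0.04.

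Il12b, the subunit that IL-12 and IL-23 share, was weakly measured, with 71, 52 and 76 expected counts in IN@OMVs libraries, 36, 33 and 35 in OMVs libraries and 53, 24 and 23 in Control libraries. In CPM this is 4.37, 2.97 and 4.42 for IN@OMVs, 2.07, 1.92 and 2.09 for OMVs and 3.16, 1.40 and 1.33 for Control. All IN@OMVs libraries were above all OMVs libraries, while Control 1 lay above the lowest IN@OMVs library. The log2 fold change was 1.00 ± 0.33 against Control (95% interval 0.24 to 1.75, edgeR adjusted p = 0.127) and 0.95 ± 0.33 against OMVs (interval 0.20 to 1.70, adjusted p = 0.224). Without Control 1 the value against Control became 1.52 (edgeR adjusted p = 0.0154), and without the 3 libraries numbered 1 it became 1.43 (adjusted p = 0.00833). OMVs against Control gave 0.05 ± 0.34 (adjusted p over 0.99).

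The subunits that pair with Il12b were close to the detection limit. Il12a had 2, 2 and 4 expected counts in IN@OMVs libraries, 7, 12 and 9 in OMVs libraries and 16, 13 and 4 in Control libraries. That is 0.157 ± 0.0661 CPM in IN@OMVs, 0.546 ± 0.149 CPM in OMVs and 0.648 ± 0.374 CPM in Control. The IN@OMVs libraries were below all OMVs libraries and shared their highest count with the lowest Control library. Its log2 fold change was -1.99 ± 0.61 against Control (95% interval -3.37 to -0.62, edgeR adjusted p = 0.0984) and -1.75 ± 0.62 against OMVs (adjusted p = 0.23), neither past the threshold. It passed without Control 3 (-2.40, edgeR adjusted p = 0.0387). Il12a also has 2 annotated promoters, and which transcript gave these few counts is not shown by the table.

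Il23a had 3, 4 and 5 expected counts in IN@OMVs libraries, 6, 3 and 11 in OMVs libraries and 13, 7 and 16 in Control libraries, or 0.235 ± 0.0534 CPM in IN@OMVs, 0.392 ± 0.245 CPM in OMVs and 0.702 ± 0.264 CPM in Control. All IN@OMVs libraries were below all Control libraries, and OMVs overlapped both. The log2 fold change was -1.55 ± 0.53 for IN@OMVs against Control (95% interval -2.76 to -0.34, edgeR adjusted p = 0.141) and -0.83 ± 0.49 for OMVs against Control (adjusted p = 0.757). At counts this low, intervals of more than 2 log2 units remain, so changes of Il12a and Il23a were poorly resolved.

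Il27, the subunit specific to IL-27, was measured at 8.74, 5.65 and 5.59 CPM in IN@OMVs libraries, 4.60, 6.47 and 6.51 CPM in OMVs libraries and 5.48, 3.51 and 4.32 CPM in Control libraries. The IN@OMVs libraries lay above the Control libraries by a narrow margin and overlapped the OMVs libraries. The log2 fold change was 0.58 ± 0.25 against Control (95% interval 0.03 to 1.14, edgeR adjusted p = 0.23) and 0.18 ± 0.24 against OMVs (adjusted p = 0.816). The value against OMVs turned to -0.06 without library 1 of IN@OMVs. OMVs against Control gave 0.40 ± 0.25 (adjusted p = 0.771).

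Ebi3, the partner of Il27, was measured at 28.8, 21.1 and 18.2 CPM in IN@OMVs libraries, 27.7, 28.7 and 32.5 CPM in OMVs libraries and 26.3, 25.4 and 24.8 CPM in Control libraries. Library 1 of IN@OMVs lay among the OMVs libraries, while libraries 2 and 3 were the lowest of the 9. With all libraries, the log2 fold change was -0.17 ± 0.15 against Control (edgeR adjusted p = 0.607) and -0.39 ± 0.15 against OMVs (adjusted p = 0.28). Without library 1 of IN@OMVs both passed, at -0.38 against Control (edgeR adjusted p = 0.0281) and -0.59 against OMVs (adjusted p = 0.00498). The OMVs libraries were all above the Control libraries, with a log2 fold change of 0.22 ± 0.15 (adjusted p = 0.814).

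Il12b and Ebi3 are the binding-partner subunits of the family, and their promoters are shown as a pair for that reason. Il12b lies on the plus strand at chr11:44399813-44400062 and Ebi3 on the plus strand at chr17:55952373-55952622, printed as above with motif matches in capitals.
Il12b: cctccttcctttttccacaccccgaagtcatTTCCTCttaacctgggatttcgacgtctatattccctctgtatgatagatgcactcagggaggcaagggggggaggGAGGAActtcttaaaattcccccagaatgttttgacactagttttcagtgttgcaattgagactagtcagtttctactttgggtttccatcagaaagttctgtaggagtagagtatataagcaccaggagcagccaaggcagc
Ebi3: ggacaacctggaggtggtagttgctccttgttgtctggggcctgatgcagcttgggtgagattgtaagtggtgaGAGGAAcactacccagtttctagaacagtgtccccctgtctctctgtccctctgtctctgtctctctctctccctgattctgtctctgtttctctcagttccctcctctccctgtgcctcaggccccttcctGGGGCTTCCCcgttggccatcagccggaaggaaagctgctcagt
The Il12b window held the PU.1 core at 219 to 214 bases (opposite strand) and at 143 to 138 bases before the start. Ebi3 held 1 PU.1 core at 176 to 171 bases and 1 kappaB match at 44 to 35 bases before the start.

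The ratio of Il27 to Ebi3 per kb was 0.343, 0.302 and 0.348 in IN@OMVs libraries, 0.188, 0.255 and 0.227 in OMVs libraries and 0.235, 0.156 and 0.197 in Control libraries. The IN@OMVs libraries were above all others. Its mean was 0.331 ± 0.0249 for IN@OMVs, 0.223 ± 0.0336 for OMVs and 0.196 ± 0.0395 for Control, with an exact permutation p = 0.1 for IN@OMVs against each other group and 0.5 for OMVs against Control (0.129 and 0.563 adjusted over the 9 ratio tests). A p of 0.1 is the smallest that 3 against 3 libraries allow. This ratio was not a planned result. It restates log2 fold changes of opposite sign in IN@OMVs against Control (0.58 for Il27 and -0.17 for Ebi3), so its test is no separate support.

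Il10, the anti-inflammatory member, was weakly measured, with 63, 23 and 25 expected counts in IN@OMVs libraries, 47, 58 and 56 in OMVs libraries and 53, 55 and 47 in Control libraries. In CPM it stood at 3.88, 1.31 and 1.46 for IN@OMVs, 2.70, 3.38 and 3.35 for OMVs and 3.16, 3.22 and 2.71 for Control. Library 1 of IN@OMVs was the highest of the 9 and the other IN@OMVs libraries were the lowest. With all libraries the log2 fold change was -0.46 ± 0.38 against Control (95% interval -1.31 to 0.40, edgeR adjusted p = 0.573) and -0.51 ± 0.38 against OMVs (adjusted p = 0.63). Without library 1 of IN@OMVs, Il10 passed at -1.13 against Control (edgeR adjusted p = 0.00875) and at -1.18 against OMVs (adjusted p = 0.0119). OMVs against Control gave 0.05 ± 0.37 (adjusted p over 0.99).

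**Figure D3:**
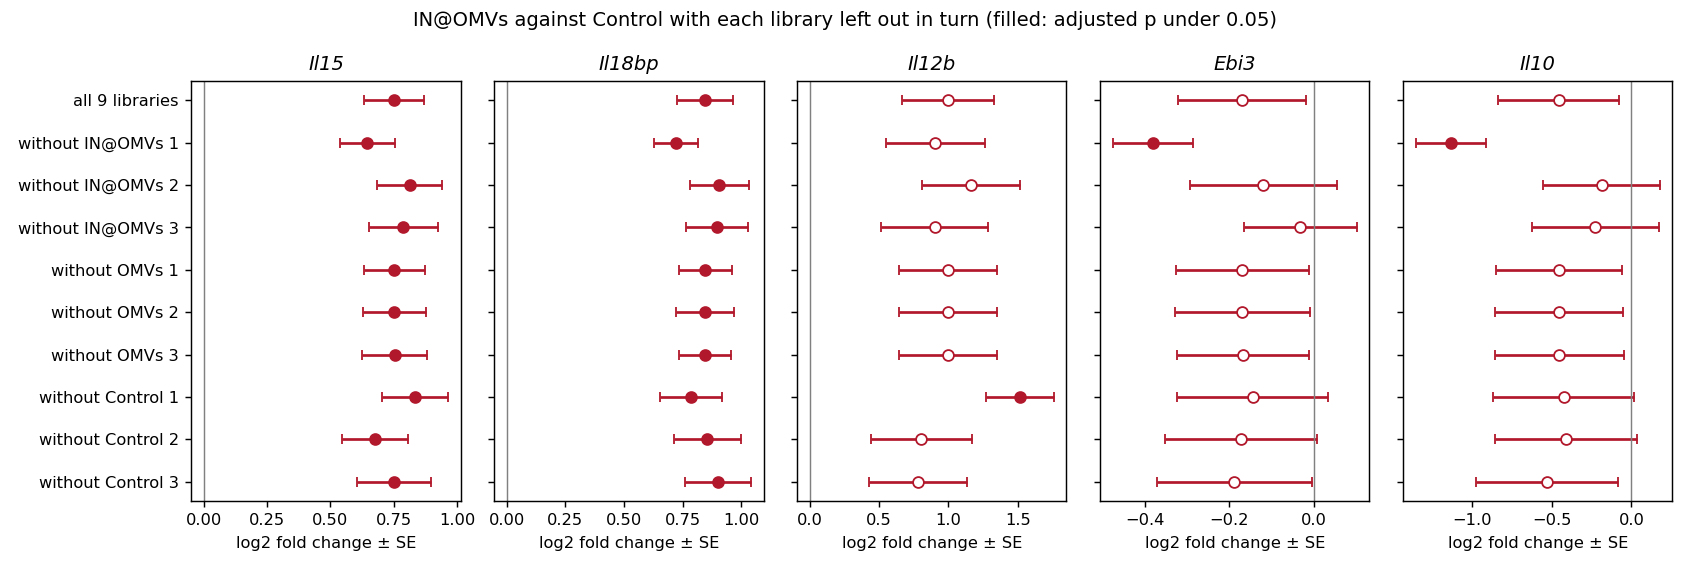
Log2 fold change ± SE of 5 genes in IN@OMVs against Control with all 9 libraries and with each library left out in turn, filled where the edgeR adjusted p is under 0.05. Il15 and Il18bp are filled in every analysis shown, Ebi3 and Il10 only without IN@OMVs 1 (-0.38 and -1.13), and Il12b only without Control 1 (1.52).

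The ratio of Il12b to Il10 was 0.759, 1.52 and 2.05 in IN@OMVs libraries, 0.516, 0.383 and 0.421 in OMVs libraries and 0.674, 0.294 and 0.330 in Control libraries, on the per kb scale. The IN@OMVs libraries were above all others, by a small margin in library 1. Its exact permutation p was 0.1 for IN@OMVs against each other group and 0.9 for OMVs against Control, or 0.129 and 0.9 adjusted over the 9 ratio tests. A p of 0.1 is the smallest that 3 against 3 libraries allow. This ratio was not a planned result. It restates log2 fold changes of opposite sign in IN@OMVs against Control (1.00 for Il12b and -0.46 for Il10), so its test is no separate support.

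**Figure D4:**
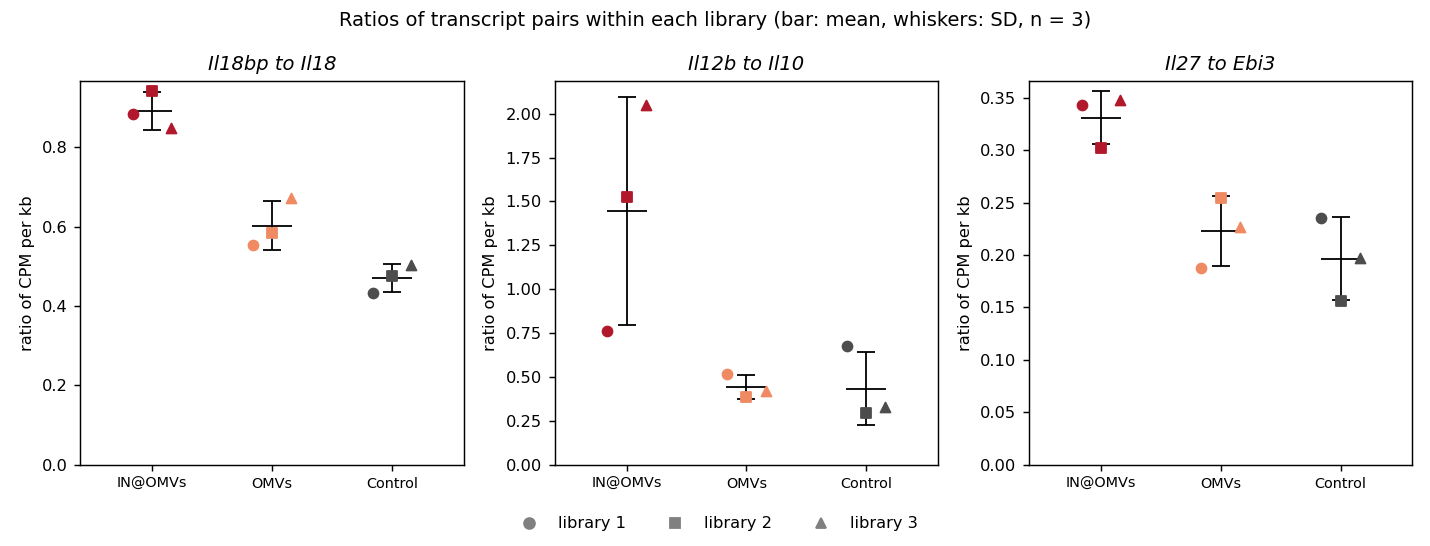
Ratio of CPM per kb (vertical axis, linear, from 0) within each library for Il18bp to Il18, Il12b to Il10 and Il27 to Ebi3, with the mean and SD over 3 libraries. IN@OMVs libraries lie above OMVs and Control libraries in all 3 panels, and OMVs lies wholly above Control only for Il18bp to Il18 (means 0.603 and 0.471).

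For IN@OMVs against OMVs, which asks what IN adds to the vesicles, 0 of 10 genes passed the edgeR test, while 5 had an unadjusted p under 0.05 (14.4% of all genes), DESeq2 called 1 (Il18bp) and limma-voom 0. Over all genes 2.85% were called (1.1% higher and 1.75% lower). Groups did not overlap for Il12b, Il15 and Il18bp, which were higher in IN@OMVs, and for Il12a, which was lower. Over all genes, 8.86% did not overlap upward and 8.72% downward. For OMVs against Control, 0 of 10 passed in edgeR, DESeq2 and limma-voom, and 2 had an unadjusted p under 0.05 (Il15 and Il18bp), beside 8.44% of all genes. Of all genes 0.42% were called (0.298% higher and 0.122% lower). Groups did not overlap upward for Ebi3, Il15 and Il18bp and downward for 0 genes, beside 9.89% of all genes in each direction. In IN@OMVs against Control, Il15, Il18bp and Il27 were apart upward and Il23a downward, beside 13.3% and 12.5% of all genes. The medians over the 10 genes were 0.05 for IN@OMVs against OMVs and 0.12 for OMVs against Control, beside -0.0035 and -5e-04 over all genes in that order.

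Of the 14 receptor genes for these cytokines, 13 were tested, and in IN@OMVs against Control 2 rose (Il12rb1 and Il15ra) and 1 fell (Tnfrsf1b). Over all genes 3.32% were called higher and 3.24% lower in that comparison. Il23r had 0 to 0.345 CPM in all libraries and was not tested. In IN@OMVs against OMVs 1 rose (Il12rb1) and 1 fell (Tnfrsf1b), beside 1.1% and 1.75% of all genes. In OMVs against Control 0 passed in edgeR and limma-voom, 2 in DESeq2, and 2 had an unadjusted p under 0.05, beside 8.44% of all genes. With 1 library left out the number called was 1 to 4 in IN@OMVs against Control, 0 to 2 in IN@OMVs against OMVs and 0 to 2 in OMVs against Control. Il12rb1, the chain that binds the shared Il12b subunit, had 37.7, 30.9 and 30.2 CPM in IN@OMVs libraries, 21.0, 19.8 and 19.2 CPM in OMVs libraries and 15.2, 10.6 and 9.97 CPM in Control libraries. The 3 groups did not overlap. Il12rb1 rose by 1.46 ± 0.16 against Control (edgeR adjusted p = 0.000885, called in 19 of 19 alternatives) and by 0.72 ± 0.15 against OMVs (adjusted p = 0.0448). The call against OMVs was lost when any library other than IN@OMVs 1 or Control 1 was left out (adjusted p 0.0554 to 0.172). OMVs against Control gave 0.75 ± 0.16 (adjusted p = 0.128), and passed without the libraries numbered 1 (0.92 ± 0.10, adjusted p = 0.000922).

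Il15ra, which presents IL-15, had 39.3, 33.2 and 37.4 CPM in IN@OMVs libraries, 32.1, 33.0 and 34.8 CPM in OMVs libraries and 27.1, 27.2 and 25.2 CPM in Control libraries. Both treated groups lay above Control and overlapped each other. It rose in IN@OMVs against Control by 0.47 ± 0.08 (edgeR adjusted p = 0.00736), which became 0.0502 without Control 3. Tnfrsf1b, a TNF receptor found mainly on immune and endothelial cells, had 310, 259 and 270.1 CPM in IN@OMVs libraries, 350.1, 367 and 404 CPM in OMVs libraries and 393, 347 and 347 CPM in Control libraries. It fell against Control (-0.37 ± 0.09, edgeR adjusted p = 0.0407) and against OMVs (-0.42 ± 0.09, adjusted p = 0.0437). Both calls were lost when any library other than IN@OMVs 1 was left out (adjusted p 0.0523 to 0.142 against Control and 0.0514 to 0.16 against OMVs), and the call against Control was lost with the replicate number as a block (adjusted p = 0.0623). Fitting the compared groups alone also lost both (edgeR adjusted p = 0.0831 against Control and 0.0884 against OMVs).

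The remaining receptors did not pass in any comparison with all 9 libraries. In edgeR, Tnfrsf1a, the widely expressed TNF receptor, Il6st, the signalling chain for IL-27, Il2rg, the chain common to IL-15 and related cytokines, and the IL-10 receptor chains Il10ra and Il10rb had log2 fold changes of -0.05 to 0.31 in IN@OMVs against Control (adjusted p 0.253 to 0.843). Il2rb, the signalling chain of the IL-15 receptor, had 55.7, 12.4 and 25.1 CPM in IN@OMVs libraries, 57.8, 10.6 and 14.4 CPM in OMVs libraries and 76.2, 12.5 and 11.8 CPM in Control libraries. Library 1 was highest in each group, as it was for T cell markers. The log2 fold change of Il2rb in IN@OMVs against Control was -0.11 ± 0.89 with all libraries (edgeR adjusted p = 0.967) and 0.62 ± 0.27 without those numbered 1 (adjusted p = 0.18), so its sign turned. The same order was seen for Il18r1, Il18rap, Il27ra and Il12rb2, whose highest value in each group was in library 1. Their log2 fold changes in IN@OMVs against Control were 0.10 ± 0.83, -0.54 ± 0.28, -0.04 ± 0.60 and 0.23 ± 0.38, in that order (adjusted p 0.347 to 0.98). Without the libraries numbered 1 the values were 0.30 ± 0.35, -0.58 ± 0.12, 0.40 ± 0.32 and 0.52 ± 0.19 in the same order, and Il18rap passed as lower (edgeR adjusted p = 0.0134), while the other 3 did not (adjusted p 0.119 to 0.652). Expected counts of Il12rb2 were fractional in 9 of 9 libraries and those of Il27ra in 1.

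**Figure D5:**
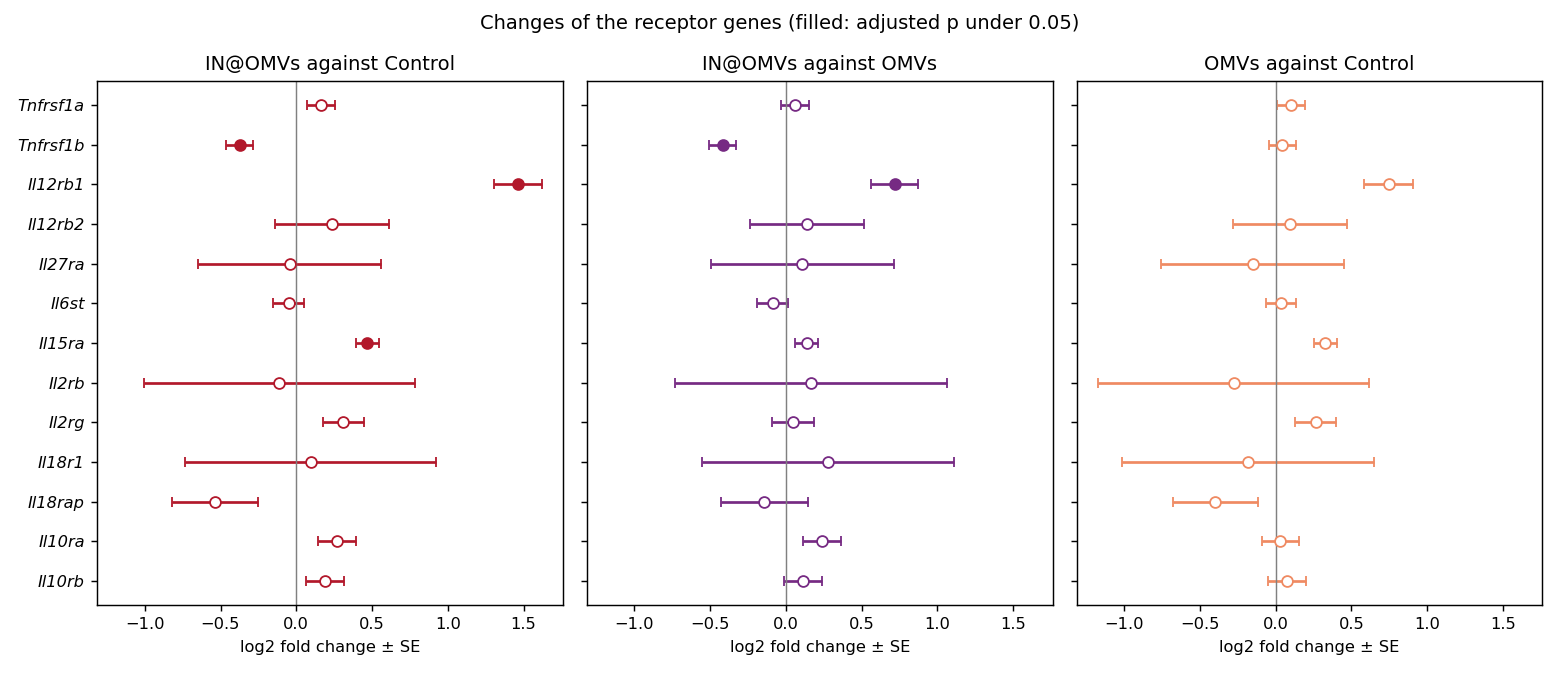
Log2 fold change ± SE of the 13 tested receptor genes in IN@OMVs against Control, IN@OMVs against OMVs and OMVs against Control, with filled points for an edgeR adjusted p under 0.05. Il12rb1 is filled in both IN@OMVs comparisons (1.46 and 0.72) and Tnfrsf1b in both (-0.37 and -0.42), and Il2rb and Il18r1 have the widest error bars.

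Among 18 genes that carry the signals of these receptors inside the cell, 0 passed in edgeR and in limma-voom in IN@OMVs against OMVs and in OMVs against Control, 1 passed in DESeq2 in each, and 2 in IN@OMVs against OMVs and 3 in OMVs against Control had an unadjusted p under 0.05. Of 11 genes that release or activate TNF and IL-18, such as Adam17, Casp1 and Nlrp3, 0 passed in edgeR or limma-voom in any comparison (unadjusted p under 0.05 for 2 in IN@OMVs against Control, 1 in IN@OMVs against OMVs and 0 in OMVs against Control, and 1, 0 and 0 called by DESeq2). Without the libraries numbered 1 the counts were 3 of 11 in IN@OMVs against Control, 3 of 18 and 4 of 11 in IN@OMVs against OMVs, and 1 of 18 and 0 of 11 in OMVs against Control. Over all genes 1475, 844 and 313 were called in these comparisons without those libraries. With all libraries, edgeR called 6.55%, 2.85% and 0.42% of all genes in the same order. An unadjusted p under 0.05 was found for 19.8%, 14.4% and 8.44% of all genes.

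Of 26 regulators of cytokine transcription or mRNA decay, 3 rose (Irf1, Irf8 and Batf3) and 6 fell in IN@OMVs against Control, 2 rose (Irf1 and Batf3) and 7 fell in IN@OMVs against OMVs, and 1 rose (Irf1) in OMVs against Control. Over all genes 6.55%, 2.85% and 0.42% were called in these comparisons, in that order. Irf8 and Batf3 are named after their values were seen: against Control, Irf8 had 0.55 ± 0.13 (edgeR adjusted p = 0.0344, called in 12 of 19 alternatives) and Batf3 1.33 ± 0.26 (adjusted p = 0.0168, 15 of 19). The Irf8 call was lost with the block (adjusted p = 0.0547) and without OMVs 1, OMVs 2 or any Control library (adjusted p 0.053 to 0.151), and the Batf3 call without IN@OMVs 3 or any Control library (adjusted p 0.055 to 0.0674). Fitting the compared groups alone also lost the Irf8 call (edgeR adjusted p = 0.0800). Against OMVs, Batf3 had 1.17 ± 0.25 (adjusted p = 0.0476, 7 of 19), a call lost without any library other than IN@OMVs 2 (adjusted p 0.051 to 0.175). That call was also lost from the compared groups alone (edgeR adjusted p = 0.124) and in limma-voom (adjusted p = 0.0531). With 1 library left out at a time the number called was 2 to 14, 2 to 13 and 0 to 1 in the 3 comparisons. Without the libraries numbered 1 it was 14, 15 and 4, beside 1475, 844 and 313 over all genes. Irf1, an interferon-induced transcription factor, had 321, 275 and 303 CPM in IN@OMVs libraries, 217, 230.2 and 224 CPM in OMVs libraries and 171, 146 and 156 CPM in Control libraries, with no overlap between groups. It rose by 0.93 ± 0.08 in IN@OMVs against Control (edgeR adjusted p = 0.000234, called in 19 of 19 alternatives), by 0.42 ± 0.08 against OMVs (adjusted p = 0.0212) and by 0.51 ± 0.08 in OMVs against Control (adjusted p = 0.0375). The call against OMVs was lost without IN@OMVs 3, Control 3 or any OMVs library (adjusted p 0.0547 to 0.0954). In OMVs against Control it was lost with the block (adjusted p = 0.0698) and without IN@OMVs 3 or any OMVs or Control library (adjusted p 0.0613 to 0.236).

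Nfil3, a transcriptional repressor reported to restrain Il12b in mouse macrophages, had 58.8, 48.6 and 46.9 CPM in IN@OMVs libraries, 86.3, 90.3 and 92.5 CPM in OMVs libraries and 105, 83.5 and 79.2 CPM in Control libraries. The IN@OMVs libraries were below all others. It fell against Control (-0.79 ± 0.12, edgeR adjusted p = 0.0046) and against OMVs (-0.80 ± 0.12, adjusted p = 0.00766), and both calls held in 19 of 19 alternatives. Nfkbia, the inhibitor of NF-kappaB, fell against OMVs (-0.64 ± 0.08, adjusted p = 0.00497) and against Control (-0.41 ± 0.08, adjusted p = 0.0232), and the second call was lost without IN@OMVs 2, IN@OMVs 3 or Control 2 (adjusted p 0.0597 to 0.0826). Fitting the compared groups alone also lost the second call (edgeR adjusted p = 0.0781). Zc3h12a, an RNase that degrades cytokine mRNAs, fell against OMVs (-0.66 ± 0.10, adjusted p = 0.00976), a call lost without OMVs 2 (adjusted p = 0.0525) or OMVs 3 (adjusted p = 0.0522). Its value against Control was -0.36 ± 0.10 (adjusted p = 0.0794).

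Of 13 genes that IL-10 induces in macrophages, 5 fell in IN@OMVs against Control: Dusp1, Cdkn2d, Socs3, Nfil3 and Zfp36. Against OMVs, 4 fell, which were Dusp1, Socs3, Nfil3 and Bcl3, and none rose in either comparison. Over all genes 3.24% were called lower against Control and 1.75% against OMVs. Zfp36 and Bcl3 are named after their values were seen, and Bcl3 had -0.60 ± 0.11 against OMVs (edgeR adjusted p = 0.0225, called in 14 of 19 alternatives), a call lost without IN@OMVs 2, IN@OMVs 3, OMVs 2, OMVs 3 or Control 3 (adjusted p 0.0504 to 0.1). These genes also respond to other signals than IL-10, and Nfil3, Zfp36 and Bcl3 are in the list of regulators too. Socs3, which blocks cytokine receptor signalling, had 271, 215 and 218 CPM in IN@OMVs libraries, 420.3, 488 and 492 CPM in OMVs libraries and 474, 445 and 424 CPM in Control libraries. Dusp1, a phosphatase that switches off MAP kinases, had 403, 321 and 328 CPM in IN@OMVs libraries, 619.6, 654 and 653 CPM in OMVs libraries and 759.7, 672 and 653 CPM in Control libraries. For both genes every IN@OMVs library was below all others. Against Control the log2 fold change was -0.93 ± 0.10 for Socs3 (edgeR adjusted p = 0.00103) and -0.99 ± 0.10 for Dusp1 (adjusted p = 0.000605). Against OMVs the values were -0.99 ± 0.10 (adjusted p = 0.0016) for Socs3 and -0.87 ± 0.10 (adjusted p = 0.00214) for Dusp1. Cdkn2d, an inhibitor of cyclin-dependent kinases, fell against Control (-0.55 ± 0.06, adjusted p = 0.00132). The calls of Socs3, Dusp1 and Cdkn2d against Control held in 19 of 19 alternatives. Zfp36, which marks cytokine mRNAs for decay, fell against Control (-0.71 ± 0.15, adjusted p = 0.0257), a call lost without IN@OMVs 2, IN@OMVs 3, OMVs 2 or any Control library (adjusted p 0.0502 to 0.0981). Fitting the compared groups alone also lost the Zfp36 call (edgeR adjusted p = 0.0739). In OMVs against Control 0 of 13 passed in edgeR, DESeq2 and limma-voom, and 3 had an unadjusted p under 0.05, beside 8.44% of all genes. With 1 library left out the number that passed was 4 to 7 against Control and 3 to 8 against OMVs. Without the libraries numbered 1 it was 8 and 8, with 2 in OMVs against Control, beside 1475, 844 and 313 over all genes.

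Of 21 genes that TNF induces, 1 rose (Cxcl10) and 6 fell in IN@OMVs against Control, 0 rose and 10 fell in IN@OMVs against OMVs, and 2 rose (Cxcl1 and Cxcl10) in OMVs against Control. Over all genes 6.55%, 2.85% and 0.42% were called in these comparisons, in that order. Nfkb2, Tnfaip3 and Nfkbia fell in IN@OMVs against OMVs and are in the list of regulators too, so both lists count them. They are named for that reason, and the calls of Nfkb2 and Tnfaip3 held in 10 and 15 of 19 alternatives. Whether TNF drove the changes of the 21 genes was not tested. All 21 values were positive in OMVs against Control, with a median of 0.29, whereas the median was -0.14 in IN@OMVs against Control and -0.35 in IN@OMVs against OMVs. With 1 library left out the number called was 3 to 11 in IN@OMVs against Control, 7 to 13 in IN@OMVs against OMVs and 0 to 6 in OMVs against Control. It was 16, 14 and 13 in the same order without the libraries numbered 1, beside 1475, 844 and 313 over all genes. Cxcl1, a neutrophil-attracting chemokine, had 7.94, 10.6 and 8.50 CPM in IN@OMVs libraries, 52.3, 88.1 and 51.0 CPM in OMVs libraries and 24.3, 26.5 and 27.3 CPM in Control libraries. The 3 groups did not overlap, with OMVs highest and IN@OMVs lowest. In IN@OMVs, Cxcl1 fell against Control (-1.53 ± 0.22, edgeR adjusted p = 0.00445) and against OMVs (-2.82 ± 0.22, adjusted p = 0.000508). It rose in OMVs against Control (1.29 ± 0.21, adjusted p = 0.04). That last call was lost in limma-voom (adjusted p = 0.0542) and without any library other than IN@OMVs 1 (adjusted p 0.0534 to 0.242).

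Cxcl2, of the same chemokine group, fell in IN@OMVs against Control (-1.31 ± 0.12, edgeR adjusted p = 0.000442) and against OMVs (-1.41 ± 0.12, adjusted p = 0.000635). Its value was 0.09 ± 0.12 in OMVs against Control (adjusted p = 0.95). Cxcl10, an interferon-induced chemokine that attracts T cells, rose by 0.99 ± 0.12 in IN@OMVs against Control (adjusted p = 0.00176) and by 0.74 ± 0.12 in OMVs against Control (adjusted p = 0.0459). The call in OMVs was lost with the block (adjusted p = 0.135), in limma-voom (adjusted p = 0.0518) and without any library other than IN@OMVs 1 or OMVs 1 (adjusted p 0.0675 to 0.285). Ccl5, a chemokine for T cells and monocytes, fell in IN@OMVs against OMVs (-1.29 ± 0.13, adjusted p = 0.00152) and against Control (-0.63 ± 0.13, adjusted p = 0.0232). The call against Control was lost with the block (adjusted p = 0.0507) and without IN@OMVs 2, IN@OMVs 3 or any Control library (adjusted p 0.0705 to 0.0944). None of 12 tested ligands related to TNF, of 17 listed, passed in edgeR or limma-voom in any comparison, while DESeq2 called 1 in each (unadjusted p under 0.05 for 5 in each IN@OMVs comparison and 3 in OMVs against Control). Of all genes 19.8% had such a p in IN@OMVs against Control, 14.4% in IN@OMVs against OMVs and 8.44% in OMVs against Control. In the same order, edgeR called 6.55%, 2.85% and 0.42% of all genes. With the block 2 passed in IN@OMVs against Control, and without the libraries numbered 1 the counts were 2 in IN@OMVs against Control, 3 in IN@OMVs against OMVs and 2 in OMVs against Control. The counts of all genes without those libraries were 1475, 844 and 313.

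Of 13 lymphocyte genes driven by IL-12 and IL-18, Ccl5 alone passed in edgeR with all libraries and no block, as lower in both IN@OMVs comparisons. Over all genes 3.24% were called lower in IN@OMVs against Control and 1.75% in IN@OMVs against OMVs. Ccl5 is the gene already counted among those that TNF induces. Its Control libraries lay at 132 to 133 CPM, while T cell markers summed to 104 to 334 CPM there. Which cells gave the reads of Ccl5 was not tested. Blocking on the replicate number again left 1 call in IN@OMVs against Control, but of another gene: Ccl5 was lost and Klrk1, an activating receptor of NK and T cells that is named after its values were seen, passed (1.18 ± 0.15, edgeR adjusted p = 0.00584, against 1.11 ± 0.40 and adjusted p = 0.161 with no block). In OMVs against Control 0 passed in edgeR and limma-voom, 1 in DESeq2, and 1 had an unadjusted p under 0.05, beside 8.44% of all genes. Without the 3 libraries numbered 1 the counts were 4 in IN@OMVs against Control, 2 in IN@OMVs against OMVs and 1 in OMVs against Control. The counts over all genes were then 1475, 844 and 313. Ifng, which encodes interferon-gamma, had 8.07, 1.43 and 3.78 CPM in IN@OMVs libraries, 7.41, 0.933 and 2.93 CPM in OMVs libraries and 7.57, 1.46 and 1.04 CPM in Control libraries. Library 1 was the highest in each group, and the groups overlapped. Its log2 fold change was 0.40 ± 0.92 in IN@OMVs against Control with a 95% interval of -1.69 to 2.48 (edgeR adjusted p = 0.87), and 1.05 ± 0.55 without the libraries numbered 1 (adjusted p = 0.27).

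Transcripts listed as markers of other cells moved with the groups as well. In bulk RNA fewer cells of a type and less RNA per cell cannot be told apart. The 8 fibroblast markers summed to 1452 to 4598 CPM in IN@OMVs, 3342 to 4401 CPM in OMVs and 4136 to 5642 CPM in Control. In each comparison 7 of their log2 fold changes were negative and 1 was positive, and 0 passed in edgeR. Of 12 monocyte markers 9 fell in IN@OMVs against Control, with sums of 1358 to 1616 CPM in IN@OMVs, 2024 to 2382 CPM in OMVs and 2825 to 3171 CPM in Control. Of 10 tested neutrophil markers 9 fell in IN@OMVs against Control, with sums of 130 to 197 CPM in IN@OMVs, 564 to 749 CPM in OMVs and 790 to 1159 CPM in Control. In IN@OMVs against OMVs 5 of the 12 monocyte and 9 of the 10 neutrophil markers fell. In OMVs against Control 3 and 0 fell in edgeR, and DESeq2 called 5 and 2. Over all genes 3.24%, 1.75% and 0.122% were called lower in these 3 comparisons. Type 1 dendritic cells are a source of IL-12. Of 8 markers of these cells, 4 rose in IN@OMVs against Control (Batf3, Clec9a, Tlr3 and Naaa), beside 3.32% of all genes. The sums of the 8 were 512 to 697 CPM in IN@OMVs, 481 to 562 CPM in OMVs and 433 to 471 CPM in Control. Naaa (mean 377 CPM) and Wdfy4 (125 CPM) made up most of the IN@OMVs sum. Xcr1, Clec9a and Batf3 averaged 2.37, 3.74 and 4.58 CPM in IN@OMVs. Against Control 7 of the 8 log2 fold changes were positive and 1 negative, and Itgae averaged 3.38 CPM against 4.56 CPM. T cell markers gave 1 rise of 12 (Il7r) in that comparison, beside the same 3.32% of all genes. NK cell markers gave 0 of 8 in edgeR, DESeq2 and limma-voom and at an unadjusted p under 0.05 in all comparisons. Of all genes 19.8% had such a p in IN@OMVs against Control, 14.4% in IN@OMVs against OMVs and 8.44% in OMVs against Control. Of 8 epithelial or tumour cell markers, 2 were tested and Cdh1, an adhesion protein of epithelial cells, fell in IN@OMVs against Control (-0.55 ± 0.11, edgeR adjusted p = 0.0222), with means of 37.2 CPM in IN@OMVs, 47.2 CPM in OMVs and 54.4 CPM in Control. Epcam averaged 0.845, 0.721 and 1.25 CPM in the same order, and Cldn3 and Cldn4 were at 0 in all libraries. The keratin genes Krt8, Krt18 and Krt19 averaged at most 0.0806 CPM in any group. The 8 markers summed to 36.9 to 42.3 CPM in IN@OMVs, 45.3 to 51.9 CPM in OMVs and 48.8 to 65.1 CPM in Control, most of it Cdh1. Whether the reads of Cdh1 came from tumour cells was not tested. The part of these cells in the changes of Il15, Il18bp, Il12b and Il12rb1 was not tested.

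The genes whose pattern over the 9 libraries was most like that of each cytokine were taken from 10520 genes with a mean of at least 5 CPM, by Pearson's r of log2 CPM. The libraries share 3 groups and a numbering, so r describes likeness and carries no test. For Il15 they were Gbp8 (r = 0.99), Gbp5 (0.98) and Irf1 (0.98), and for Il18bp Znfx1 (0.99), Bst2 (0.99) and Tor3a (0.98). For Tnf they were Cox8a (0.98), Plcb2 (0.98) and Nrros (0.97), and for Il27 Rhbdf2 (0.96), Dnaaf3 (0.95) and Got1 (0.94). Ebi3 was most like Marcksl1 (0.96), Pilrb1 (0.95) and Cebpb (0.95), and Il10 most like Atf6b (0.97), Pilrb1 (0.96) and Zdhhc9 (0.96), so that Pilrb1 stood in both. Il18 was most like Fhod1 (0.96), Dip2b (0.95) and Safb2 (0.95), and Il12b most like Fyn (0.94), Rundc1 (0.93) and Alkbh2 (0.93). For the barely detected Il12a they were Ppp1r15b (0.96), Kat7 (0.93) and Dnaaf5 (0.92), and for Il23a Hibch (0.95), Cenpo (0.94) and Nsun3 (0.92).

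Reads of some of the 10 genes may be shared with neighbours. Expected counts of Il18bp were fractional in 9 of 9 libraries, and those of the other 9 genes in none. By GENCODE M21 on GRCm38, exons of Il18bp and Numa1 share 80 bases on chromosome 7, those of Il27 and Apobr 103 bases on chromosome 7, and those of Ebi3 and the antisense gene Gm16712 270 bases on chromosome 17, in each case on opposite strands. The sources used here do not say if counting used strand, so reads from these stretches cannot be told apart.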

How the data were processed

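Total RNA of 9 libraries was extracted with TRIzol and prepared with oligo-dT beads, per the labels' protocols. The deposited values are expected counts per gene symbol, not normalised, as the values show: 88.8% to 89.6% of a column are whole and totals differ. Per the submitters' processing notes the tools were BWA, Bowtie2 and RSEM, with no versions, and the builds mm9 and hg19, with no roles given. These were rounded for edgeR 4.0.16 (R 4.3.3): TMM factors, filterByExpr (minimum count 10), a mean per group over all 9 libraries, quasi-likelihood F test, two-sided, Benjamini-Hochberg over 13090 genes in each comparison, threshold 0.05. All 10 genes described passed the filter. The common dispersion was 0.0172, on 6 residual degrees of freedom. Intervals are at 95% from the fit, and the comparisons share libraries. CPM uses TMM-scaled totals, and r used log2 CPM with a prior count of 2. Ratios were compared by exact permutation of libraries.

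The genes and lists were chosen with earlier results of these data known. Named were all 10 genes, all receptors, Ifng, up to 4 called genes per pathway list by smallest adjusted p, and the 3 most alike genes each. One result that this rule names is not reported here. Steps were tested on simulated counts with known changes. Alternatives were RLE and upper-quartile factors, no filter, at least 1 CPM in at least 6 libraries, DESeq2 1.42.0, limma-voom 3.58.1, unrounded counts, the compared groups alone, the replicate number as a block, each library left out, and, added after seeing the data, omission of the libraries numbered 1. What a replicate number stands for is not given in the labels. Deviations of same-numbered libraries correlated at 0.53, 0.38 and 0.12 for OMVs and Control and at 0.45, 0.31 and 0.15 for IN@OMVs and Control. For IN@OMVs and OMVs the values were 0.07, 0.51 and -0.37. Libraries of unlike number reached 0.35 (OMVs 2 and Control 3), 0.36 (IN@OMVs 2 and Control 3) and 0.44 (IN@OMVs 1 and OMVs 3). Library 1 of both treated groups was negative against Control 2 and Control 3, but numbers 2 and 3 were not told apart. Deviations were taken from the group mean, so a positive value with Control 1 entails a negative one with Control 2 or Control 3. Those negative values are no separate evidence of pairing. Pairing by number was thus not established, and the main tests used no block.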

Additional observations from a re-analysis of the deposited data

How the results depend on the processing

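Of the 10 genes, 2 were called in IN@OMVs against Control, and 0 in IN@OMVs against OMVs and in OMVs against Control. Without the 3 libraries numbered 1 (chosen after seeing the data) these counts were 4, 2 and 2. With 1 library left out they ranged from 2 to 4, 0 to 2 and 0 to 0, with 4 and 2 without IN@OMVs 1 and 3 without Control 1 or Control 3. DESeq2 called 1 in IN@OMVs against OMVs. With the replicate block the counts were 2, 0 and 0, so it changed no call among the 10 genes. For IN@OMVs against OMVs the block ended the calls of Tnfrsf1b (adjusted p = 0.0683) and Batf3 (adjusted p = 0.0818). It gave 2 calls of 13 lymphocyte genes there, against 1 with no block, and 1 of 12 ligands related to TNF, against 0. Some values turned sign. With 1 library left out, OMVs against Control ranged from -0.0205 to 0.15 for Il10, -0.64 to 0.14 for Il12a and -0.17 to 0.57 for Il12b. IN@OMVs against Control ranged from -0.20 to 0.0236 for Il18, and IN@OMVs against OMVs from -0.21 to 0.0095 for Il18, -0.0399 to 0.29 for Tnf and -0.0614 to 0.30 for Il27. Without the libraries numbered 1, Il12a was at 0.32 in OMVs against Control, and Tnf at -0.0821 and Il27 at -0.21 in IN@OMVs against OMVs. The causes were not tested. Over all genes, 858 were called in IN@OMVs against Control, 373 in IN@OMVs against OMVs and 55 in OMVs against Control. These counts were 1475, 844 and 313 without the libraries numbered 1, 519, 195 and 115 from the compared groups alone, and 393 to 1635, 180 to 786 and 0 to 266 with 1 library left out. DESeq2 gave 646 for IN@OMVs against OMVs and 207 for OMVs against Control, where limma-voom gave 36 and the replicate block 20. The filter at 1 CPM left Il12a and Il23a without a value. Depth limits Il12a and Il23a most, at 2 to 16 counts a library.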
